A study of Mus musculus with 12 samples.

Results

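Gene expression after 18 h of panobinostat was set against that of untreated cells in E14 mouse embryonic stem cells, a male 129/Ola line with a wild-type genotype. Panobinostat, also called LBH589, was given at 50 nM. The comparison rested on 3 Illumina bead arrays of cells exposed for 18 h and 3 arrays of untreated cells (0 h), 6 of the 12 arrays of a time course that also holds 3 arrays at 2 h and 3 at 6 h. All cells grew without feeders on gelatin, in medium with fetal calf serum and leukemia inhibitory factor (LIF), the cytokine that sustains self-renewal. The 0 h cells received no drug, and no vehicle or untreated culture at 18 h was used here, so 18 h of drug and 18 h of further culture cannot be told apart. Nothing in the labels ties the 3 arrays of each time to separate cultures. The p-values measure the spread between arrays of the same time, pooled over all 12 arrays, and that spread may be technical. All genes on the array were considered: 11445 of 19057 passed the filter on detection and were tested.

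Histone deacetylases remove acetyl groups from lysines of histones and other proteins, and panobinostat is a hydroxamate that blocks the zinc-dependent enzymes of this family. Acetylated histone tails are a mark of active promoters and enhancers and are bound by bromodomain proteins. In embryonic stem cells the deacetylases work within complexes such as NuRD, Sin3 and CoREST, which take part both in the silencing of lineage genes and in the control of the pluripotency factors.

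Values below are log2 signals after background correction and quantile normalization, listed in the order of replicates 1, 2 and 3, and changes are log2 differences, 18 h minus 0 h, with the standard error (SE) of the limma fit. A gene is said to have risen or fallen where its adjusted p, over all 11445 genes, was under 0.05. The 18 h arrays detected 18031, 17656 and 18026 of 45281 probes, and the 0 h arrays 17542, 17264 and 17538. The correlation between arrays was 0.976 to 0.984 within 18 h, 0.97 to 0.985 within 0 h and 0.889 to 0.956 between the groups. The first principal component held 71.3% of the variance of these 6 arrays and placed the 18 h arrays at -56.73, -32.73 and -30.39 and the 0 h arrays at 42.84, 26.73 and 50.29. The number of arrays limits the precision, with a median SE of 0.20 for a log2 change.

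At 18 h 4184 genes, 36.6% of those tested, differed from untreated cells. Of these, 2390 rose (20.9% of genes tested) and 1794 fell (15.7%), and 1655 changed at least 2-fold (14.5%), 1037 upward (9.06%) and 618 downward (5.4%). The count of at least 2-fold changes was 613 with no background correction and 995 with a larger offset. A fit of only the 18 h and 0 h arrays called 3201 genes, of which 1860 rose and 1341 fell. At least 4-fold changes comprised 174 genes that rose (1.52%) and 87 that fell (0.76%). The 3 arrays at 18 h all lay above the 3 at 0 h for 2853 genes (24.9%) and all lay below for 2234 genes (19.5%). The groups thus did not overlap for 44.4% of genes. Many genes below were named for the size of their change, so a lack of overlap is no separate result for them. The median change of all genes was 0.05. When arrays were scaled by their 75th percentile instead of by quantiles this median was -0.11, and the split became 1780 genes that rose and 2348 that fell, with 43.1% of calls higher instead of 57.1%. Changes are therefore relative to the bulk of the transcripts on the array. Counts of gene lists below are to be read against the 20.9% of all genes that rose and the 15.7% that fell.

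The genes that rose had a lower median signal in untreated cells than those that fell. Their median signal was 8.00 at 18 h and 6.75 at 0 h, against 7.34 at 18 h and 8.38 at 0 h for the genes that fell. Of the genes that rose, 690 (28.9%) were detected on fewer than 3 of 3 arrays of untreated cells, and of those that fell, 24 (1.34%). Among genes not called the share was 24.4%, and their median signal was 7.02 at 18 h and 6.97 at 0 h, nearer to the genes that rose. A probe near background in untreated cells leaves little room for a fall. A gene that rose could also pass the filter on detection through treated arrays alone. The contrast between genes that rose and fell is therefore partly set by the filter and the call. Ordered by the mean over all 12 arrays, the 2289 dimmest genes held 15.9% that rose and 5.81% that fell, and the 2289 brightest 20.1% and 17.5%. Where a gene had further probes on the array, they all pointed the same way for 665 of 784 genes that rose and 702 of 776 that fell.

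**Figure D1:**
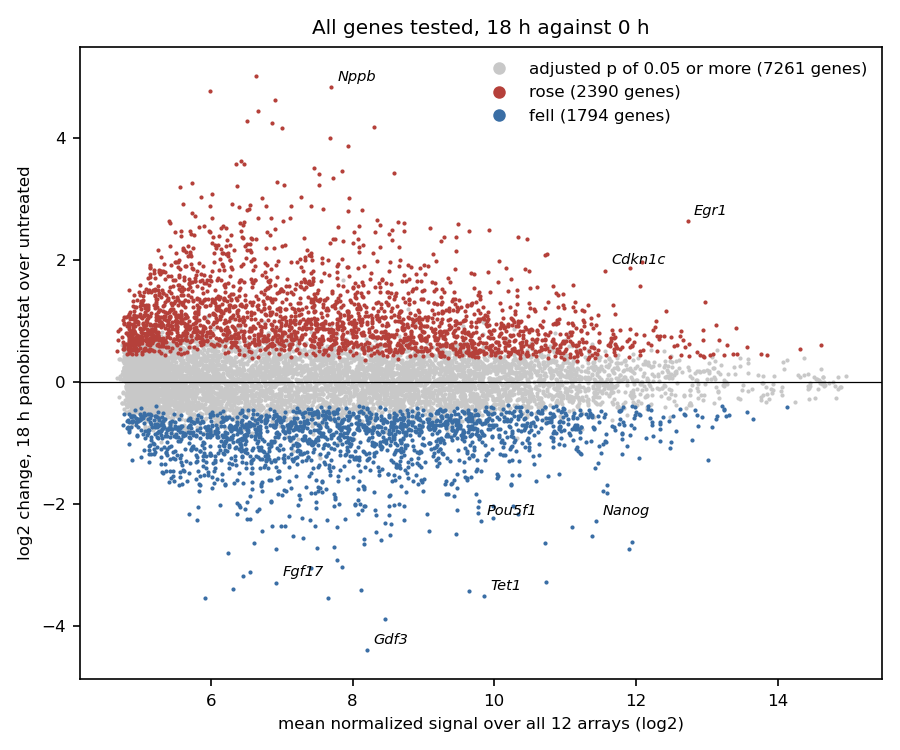
Each point is 1 of 11445 genes, with the mean normalized signal over all 12 arrays (log2) on the horizontal axis and the log2 change of 18 h panobinostat over untreated cells on the vertical axis. Red points mark the 2390 genes that rose and blue points the 1794 that fell, which are found across the range of levels.

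The 12 genes with the largest fitted rises, clone names such as AU015228 left out, are given first. They were chosen among genes whose groups did not overlap, so that they lie apart is no separate result. Of the 12 genes, 4 were detected on no untreated array, and 3 on all 3. Nppb, which encodes the natriuretic peptide B of heart muscle, read 10.60, 9.38 and 9.64 at 18 h, against 5.25, 4.93 and 4.92 at 0 h, a fitted change of 4.84 ± 0.35 (SE, adjusted p = 2.08e-06). Replicates 2 and 3 of the untreated arrays lay below their lowest detected signals, 5.08 and 5.05, so the size rests partly on values at background. Cldn10, a claudin of tight junctions, read 9.36, 9.13 and 8.95 at 18 h, against 4.53, 4.50 and 4.55 at 0 h. Its signal at 18 h was at least 16.9-fold higher (adjusted p = 3.83e-09), a bound, since no array of untreated cells detected it: such bounds set the mean of the detected group against the higher of the dim group's own signal and the lowest detected signal of its arrays. For Cldn10, 2 further probes rose by less, 1.24 and 2.52.

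Oas1e and Oas1d, of the oligoadenylate synthetase gene family, had the largest SD among the treated arrays within this set of 12, 1.51 and 1.30. Oas1e read 10.28, 7.56 and 10.04 at 18 h, against 4.76, 4.43 and 4.40 at 0 h, at least 18.8-fold higher (adjusted p = 2.93e-05). Oas1d read 10.55, 8.09 and 10.08 at 18 h, against 5.33, 5.51 and 5.37 at 0 h, a change of 4.17 ± 0.44 (adjusted p = 2.52e-05). Replicate 2 of the 18 h arrays was the lowest for both genes, and that it lay above every untreated array follows from how the 12 genes were chosen. The family members are alike in sequence, so cross-hybridization between them cannot be told apart from separate rises.

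Dmkn, a dermokine secreted by epidermis, was at least 19.05-fold higher (adjusted p = 4.34e-06), and its second probe rose by 4.74. Krtdap, a keratinocyte differentiation-associated protein, rose by 3.62 ± 0.34, with 1.85 on a second probe. Cldn11, the claudin of myelin and Sertoli cells, was at least 13.95-fold higher (adjusted p = 3.97e-07). Gpha2, a glycoprotein hormone subunit, rose by 4.25 ± 0.31, and Pyy, a gut peptide hormone, by 3.58 ± 0.31. Plat, the tissue plasminogen activator, rose by 3.87 ± 0.39, Spink2, a protease inhibitor of the testis, by 4.01 ± 0.21, and Nrip3 by 4.18 ± 0.48. These 12 genes were chosen among those whose groups did not overlap.

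Among the 12 genes with the largest fitted falls were a TGF-beta family ligand and both Lefty genes, which encode antagonists of Nodal. Gdf3, a TGF-beta family ligand of pluripotent cells, read 5.20, 5.77 and 6.63 at 18 h, against 10.50, 9.58 and 10.71 at 0 h, a change of -4.40 ± 0.35 (adjusted p = 3e-06). Lefty1, a Nodal antagonist, read 6.52, 6.37 and 6.46 at 18 h, against 9.92, 9.85 and 11.23 at 0 h, a change of -3.88 ± 0.53 (adjusted p = 0.000146). The 12 genes were chosen among those whose groups did not overlap. The spread of Lefty1 lay in the untreated arrays.

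Tet1, the enzyme that oxidizes methylcytosine, read 6.60, 8.56 and 8.06 at 18 h, against 11.23, 10.63 and 11.89 at 0 h, a change of -3.51 ± 0.52 (adjusted p = 0.000251). Nupr1, a small stress-induced chromatin protein, read 6.12, 6.09 and 5.87 at 18 h, against 8.99, 9.54 and 10.17 at 0 h, a change of -3.54 ± 0.25 (adjusted p = 2.01e-06). Replicate 1 of the 18 h arrays had the lowest Tet1 signal. That all treated arrays lay below all untreated ones for both genes follows from how the 12 genes were chosen.

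The other falls among the 12 largest included signalling and transport genes. Gli2, a transcription factor of Hedgehog signalling, fell by 3.40 ± 0.32 on the log2 scale, but its second probe read only -0.61. Fgf17, a fibroblast growth factor, changed by -3.29 ± 0.23. Slc7a3, a transporter of cationic amino acids, changed by -3.28 ± 0.24, and Slc28a1, a nucleoside transporter, by -3.11 ± 0.21. Jam2, a junctional adhesion molecule, changed by -3.42 ± 0.26, with -3.15 to -0.41 on further probes. Ubap1l was at least 8.64-fold lower (adjusted p = 2.84e-06), Prmt8, an arginine methyltransferase, at least 7.76-fold lower (adjusted p = 8.23e-06) and Lefty2, the second Nodal antagonist, at least 6.86-fold lower (adjusted p = 0.000572) at 18 h, where none of their arrays had detectable signal.

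**Figure D2:**
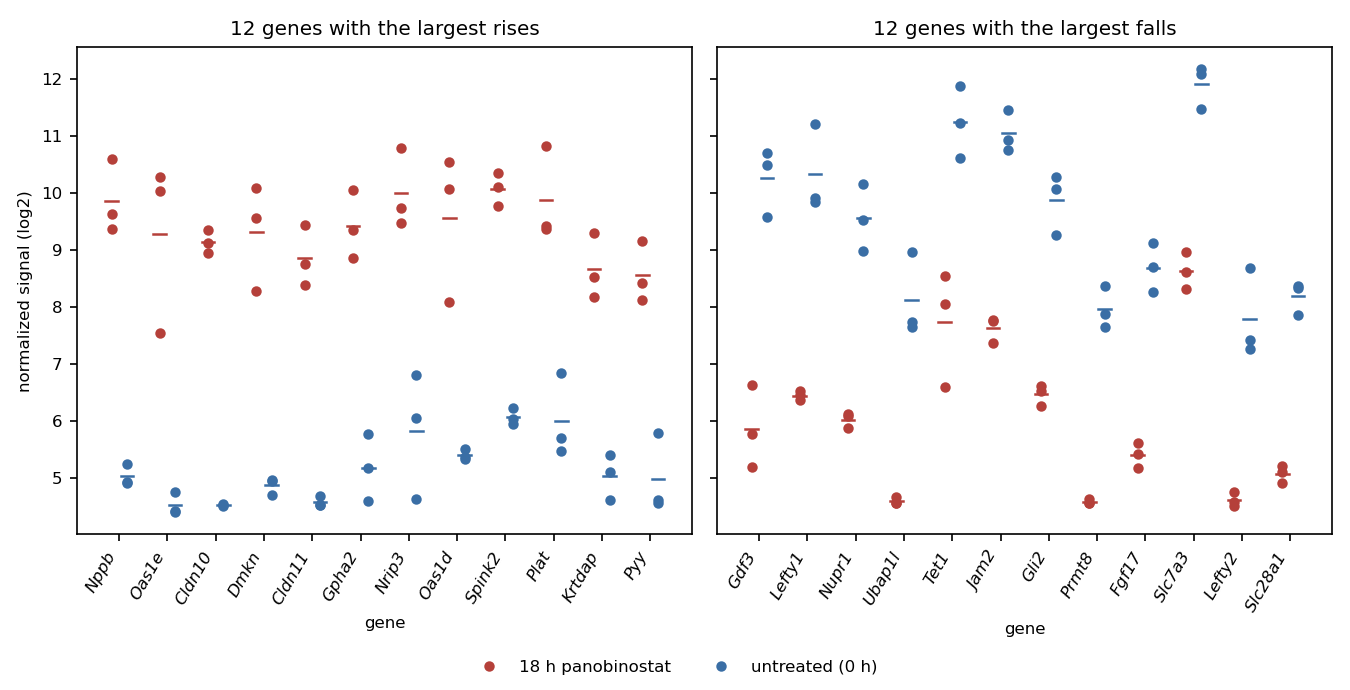
Normalized signal (log2) of the 12 genes with the largest fitted rises (left) and the 12 with the largest fitted falls (right), clone names left out, 1 point per array, with 18 h panobinostat in red, untreated cells in blue and a line at each mean (n = 3). The 24 genes were chosen among those without overlap between the groups, and Nppb shows the largest gap between the means in the left panel (9.87 and 5.03) and Gdf3 in the right (5.87 and 10.26).

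The promoters of 2 of these risers and 2 of these fallers, the first in the order of fitted change with an entry in the RefSeq promoter table (GRCm38.p6), are shown because genes of large change had fewer CpG at the median than the rest, as described further on. Cldn10 and Ubap1l each had a group without detected signal, so their place in that order is not a measured rank. Cldn10 has 2 promoters listed, and only the first listed is shown. Each runs 5′ to 3′ on the strand of its gene, with 250 bases before and 50 after the start. Nppb lies at chr4:147985650-147985949 (plus strand), Cldn10 at chr14:118787621-118787920 (plus), Nupr1 at chr7:126625421-126625720 (minus) and Ubap1l at chr9:65360779-65361078 (plus). Capitals mark matches, on either strand, to the TATA motif TATAAA, the CCAAT box, the GC box GGGCGG or the E-box CACGTG.
Nppb promoter: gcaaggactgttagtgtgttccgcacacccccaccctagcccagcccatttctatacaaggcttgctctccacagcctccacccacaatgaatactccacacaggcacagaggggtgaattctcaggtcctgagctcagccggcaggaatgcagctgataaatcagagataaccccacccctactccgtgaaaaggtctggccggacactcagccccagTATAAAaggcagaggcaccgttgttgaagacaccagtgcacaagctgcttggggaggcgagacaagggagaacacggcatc
Cldn10 promoter: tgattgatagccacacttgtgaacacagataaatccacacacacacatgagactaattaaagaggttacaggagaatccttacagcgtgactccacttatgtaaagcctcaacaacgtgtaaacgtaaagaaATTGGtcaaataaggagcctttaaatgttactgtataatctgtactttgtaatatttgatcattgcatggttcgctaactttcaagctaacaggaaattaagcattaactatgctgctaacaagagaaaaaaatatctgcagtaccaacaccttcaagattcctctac
Nupr1 promoter: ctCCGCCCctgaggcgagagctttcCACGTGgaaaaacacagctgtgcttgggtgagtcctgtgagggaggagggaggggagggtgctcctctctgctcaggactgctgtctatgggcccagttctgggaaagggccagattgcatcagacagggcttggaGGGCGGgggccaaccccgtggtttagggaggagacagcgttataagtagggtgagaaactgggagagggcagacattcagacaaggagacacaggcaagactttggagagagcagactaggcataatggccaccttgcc
Ubap1l promoter: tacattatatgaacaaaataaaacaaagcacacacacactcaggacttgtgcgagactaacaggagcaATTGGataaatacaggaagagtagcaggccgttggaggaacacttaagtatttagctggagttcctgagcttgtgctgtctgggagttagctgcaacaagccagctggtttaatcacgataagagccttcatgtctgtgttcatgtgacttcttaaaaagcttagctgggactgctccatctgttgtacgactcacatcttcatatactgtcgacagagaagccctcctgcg
The Nppb window holds a TATAAA match and 7 CpG, and the Cldn10 window an inverted CCAAT and 4 CpG. The Nupr1 window holds 2 GC box matches, 1 on each strand, an E-box and 6 CpG. The Ubap1l window has an inverted CCAAT and 6 CpG. All 4 counts lie below the median of 20 CpG over the 9250 tested genes with such a promoter. These are matches of letters, not shown binding sites.

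Of the genes tested, 295 (2.58%) had signal above background on every 18 h array and on no untreated array, and 79 (0.69%) the other way. The first count was 467 without replicate 2 of the untreated arrays, and the second 131 without replicate 3 of the 18 h arrays. AU015228 had the largest bound, at least 19.9-fold higher (adjusted p = 2.56e-07), with 10.00, 8.58 and 9.54 at 18 h, against 4.34, 4.38 and 4.35 at 0 h. H2-Aa, a chain of the MHC class II molecule that presents peptides, was at least 6.62-fold higher (adjusted p = 1.6e-06), with 8.25, 7.53 and 7.59 at 18 h, against 4.53, 4.53 and 4.51 at 0 h. Both genes were chosen by this rule and for the size of their bound, so the distance between their groups is no separate result. Among genes no longer detected at 18 h, Gm525 was at least 5.67-fold lower (adjusted p = 3.57e-06), Olfr985, an olfactory receptor gene, at least 3.69-fold lower (adjusted p = 0.000123) and Pecam1, an adhesion molecule of endothelium that embryonic stem cells also carry, at least 3.43-fold lower (adjusted p = 0.000115).

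The labelled cell type was checked against its markers, and these fell at 18 h. Of 9 tested markers of embryonic stem cells 8 fell and none rose, with a median change of -2.28. This median was -1.82 with no background correction and -1.46 with the mean over probes. Pou5f1, which encodes OCT4, read 8.09, 8.29 and 8.54 at 18 h, against 10.30, 10.59 and 10.85 at 0 h, a change of -2.28 ± 0.17 (adjusted p = 2.54e-06). Nanog read 9.37, 10.99 and 10.85 at 18 h, against 12.80, 12.52 and 12.73 at 0 h, a change of -2.28 ± 0.33 (adjusted p = 0.000199). Neither gene's groups overlapped, and both remained detected on every treated array. In bulk RNA, fewer cells that express a gene and less RNA per cell cannot be told apart. Sox2, the partner of OCT4, was less clear: 8.16, 9.44 and 9.57 at 18 h, against 9.97, 9.59 and 10.57 at 0 h, a change of -0.99 ± 0.32 (adjusted p = 0.028). The adjusted p was 0.112 and the change -0.54 without replicate 1 of the 18 h arrays, and the adjusted p was 0.0575 without replicate 1 and 0.123 without replicate 3 of the untreated arrays.

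Of 12 tested core pluripotency genes 9 fell and none rose, with a median of -1.21, and Utf1, a chromatin-associated factor of pluripotent cells, changed by -2.45 ± 0.22. Of 16 naive pluripotency genes, which mark the ground state, 11 fell and none rose, with a median of -1.56. Tbx3, a T-box factor of that state, changed by -2.91 ± 0.28, and Esrrb, a nuclear receptor of the same network, by -2.53 ± 0.28, with -0.39 on a second Esrrb probe. Formative and primed genes, which follow exit towards the epiblast, fell too: 7 of 10 fell and none rose, with a median of -0.88. Otx2, a homeobox gene of the epiblast, read 5.15, 6.49 and 7.33 at 18 h, against 9.54, 9.03 and 9.54 at 0 h, a change of -3.05 ± 0.39 (adjusted p = 9.82e-05). Fgf15 changed by -2.01 ± 0.23.

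Markers of other cell types gave no common direction. Of 9 tested fibroblast or feeder markers 2 rose and none fell, and that share of 22.2% is near the 20.9% of all genes. The 2 were Thy1, a surface glycoprotein shared with neurons (2.22 ± 0.30), and Fbln2, an extracellular matrix fibulin (2.00 ± 0.26). The summed linear signal of the list was 4214 to 7128 at 18 h and 4418 to 5242 at 0 h. Col1a1, Twist1, Twist2 and Prrx1 did not pass the test, and Col3a1, Postn, Lum and Dcn were detected on no array of either group. Hba-a1, an alpha globin, was at least 4.35-fold higher (adjusted p = 3.1e-05), Cd3e, a T cell receptor chain, changed by -1.12 ± 0.24, and the blood markers Ptprc, Spi1, Lyz2 and Itgam were detected on no array of either group. Alpha globin genes are nearly identical to each other, so the Hba-a1 signal is not assigned to a single gene. The blood list had a summed signal of 203.5 to 357.9 at 18 h and 167.3 to 244.5 at 0 h. Endothelial markers split, with Esam (1.39 ± 0.31) and Cldn5 (1.04 ± 0.36) higher and Pecam1, Tek (-1.27 ± 0.23) and Vwf (-1.16 ± 0.33) lower, and a summed signal of 1614 to 1806 at 18 h and 1675 to 1987 at 0 h. The Cldn5 call was lost under several settings, among them no background correction, with a change of 0.425. The part of such cells in the other results was not tested.

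Of 10 tested deacetylase genes, whose proteins are the targets of the drug, 3 rose (30.0%, against 20.9% of all genes), 1 fell and 6 did not pass the test. The median was 0.18, and -0.14 with 75th percentile scaling. Hdac11 rose by 0.97 ± 0.27, Hdac5, of class IIa, by 0.62 ± 0.16 and Hdac3, the enzyme of the NCoR complex, by 0.55 ± 0.15. Hdac4, also of class IIa, read 5.95, 6.22 and 6.26 at 18 h, against 7.41, 7.29 and 7.39 at 0 h, a change of -1.22 ± 0.16 (adjusted p = 0.000129). Hdac2 read 12.30, 12.28 and 12.36 at 18 h, against 12.24, 12.13 and 12.25 at 0 h, a change of 0.11 ± 0.13 that did not pass the test, and its second probe read -0.55. Changes of Hdac6, Hdac7, Hdac8, Hdac9 and Hdac10 lay between -0.21 and 0.25. Hdac1 was not analysed here.

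Of 19 tested members of the NuRD, Sin3, CoREST and NCoR complexes 11 fell (57.9%, against 15.7% of all genes) and none rose, with a median of -0.63. Mta3, a NuRD subunit, read 8.58, 9.38 and 9.50 at 18 h, against 11.25, 11.30 and 11.43 at 0 h, a change of -2.17 ± 0.22 (adjusted p = 1.98e-05), with -1.89 on a second probe. Mbd2, the NuRD subunit that binds methylated DNA, changed by -2.11 ± 0.42. The groups did not overlap for either gene, as for 44.4% of all genes.

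Of 13 tested genes of the opposing enzymes, the acetyltransferases, and of the BET readers of acetylated lysine 8 fell and 1 rose, with a median of -0.65. All 8 that fell were acetyltransferases, while the BET genes Brd2 and Brd3 did not pass the test. Kat6b changed by -1.53 ± 0.20, with -0.77 and -0.24 on further probes, and Kat2b, with no detected signal at 18 h, was at least 1.98-fold lower (adjusted p = 0.0085). The gene that rose was Brdt, the testis-specific BET protein. It read 7.82, 7.87 and 8.11 at 18 h, against 5.64, 5.88 and 6.16 at 0 h, a rise of 2.04 ± 0.17 (adjusted p = 4.65e-06) and of 2.56 on a second probe.

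Of 25 Polycomb subunits, which maintain silencing through histone marks, 8 fell (32.0%, against 15.7% of all genes) and 2 rose, with a median of -0.32. Phc1 and its paralog Phc2, both of the canonical repressive complex, moved in opposite directions. Phc1 changed by -1.83 ± 0.14, with -2.67 on a second probe, and Phc2 by 1.18 ± 0.16. Bcor, of a variant complex, changed by -1.41 ± 0.27, and Cbx8, a chromodomain subunit with signal on 2 of 3 treated arrays and no untreated array, was at least 1.22-fold higher, a call that was lost under 9 alternative settings. Of 9 genes of DNA methylation and demethylation 3 fell and none rose, Tet1 as above, Dnmt3b, a de novo methyltransferase, by -0.66 ± 0.21 and Tdg, named after its value was seen, by -0.57. The median of this list was 0.08, and -0.25 with 75th percentile scaling.

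Linker and variant histones changed at shares near those of all genes: 3 of 14 rose (21.4%, against 20.9%) and 2 fell (14.3%, against 15.7%). H1f10, a linker histone, read 10.54, 10.17 and 10.30 at 18 h, against 8.34, 8.72 and 8.39 at 0 h, a rise of 1.85 ± 0.15 (adjusted p = 4.34e-06), with 0.87 on a second probe. H2bc4, a core histone H2B, rose by 1.03 ± 0.22. H2aj changed by -0.68 ± 0.15 and H2az1, the H2A.Z variant, by -0.73 ± 0.21 with overlapping groups. H1f0, a linker histone known to respond to deacetylase inhibitors, was not analysed here.

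Of 8 tested inhibitors of the cyclin-dependent kinases 6 rose, 1 fell and 1 did not pass the test, with a median of 0.92. Cdkn1c, which encodes p57, read 13.74, 12.46 and 12.87 at 18 h, against 11.05, 11.34 and 11.19 at 0 h, a change of 1.83 ± 0.31 (adjusted p = 0.000586). Cdkn2b, which encodes p15, rose by 1.59 ± 0.17. Cdkn1b, which encodes p27, had 4.74, 4.72 and 4.75 at 18 h, where no array detected it, against 6.34, 6.72 and 6.02 at 0 h, and was at least 2.53-fold lower (adjusted p = 0.000476). Cdkn1a, which encodes p21 and is a widely described target of deacetylase inhibitors, read 9.75, 9.86 and 9.65 at 18 h, against 9.25, 9.66 and 8.89 at 0 h. This change of 0.49 ± 0.20 did not pass the test (adjusted p = 0.0715), and 1 further probe read -0.21.

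Of 34 tested replication genes 15 fell, 2 rose and 17 did not pass the test, with a median of -0.36. Mcm3, a subunit of the replicative helicase, read 6.83, 7.19 and 6.65 at 18 h, against 8.38, 7.95 and 8.43 at 0 h, a change of -1.36 ± 0.18 (adjusted p = 0.000123). Cdt1, which loads that helicase, changed by -0.91 ± 0.14, whereas Prim2, a primase subunit, rose by 0.69 ± 0.14 and Gins4, a helicase cofactor, by 0.58 ± 0.16. With 75th percentile scaling the Gins4 call was lost, with a change of 0.199. Of 26 mitosis genes 11 fell and none rose, the other 15 missing the threshold, with a median of -0.37. Plk1, a mitotic kinase, changed by -0.81 ± 0.18 and Kif11, the spindle kinesin, by -0.85 ± 0.30 with overlapping groups. The Kif11 call was lost under several settings, with a change of -0.544 without replicate 1 of the 18 h arrays.

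Of 15 G1 cyclins, E2F factors and pocket proteins 4 fell (26.7%, against 15.7% of all genes) and 1 rose. Ccnd1, cyclin D1, read 8.07, 9.10 and 8.34 at 18 h, against 11.05, 10.45 and 10.17 at 0 h, a change of -2.06 ± 0.28 (adjusted p = 0.000126), with -2.36 and -1.93 on further probes. E2f3 changed by -0.97 ± 0.16 and E2f2 by 0.69 ± 0.24, the second with a call lost under 7 alternative settings. The p53 targets fell in 6 of 19 cases (31.6%, against 15.7% of all genes) and rose in 1. Sesn1, a sestrin, rose by 0.89 ± 0.23, while Sesn2 changed by -1.54 ± 0.18, with -0.73 and 0.03 on further probes, and Zmat3, a zinc finger target of p53, by -1.62 ± 0.23. Of 17 apoptosis regulators 4 fell (23.5%, against 15.7% of all genes) and 2 rose (11.8%, against 20.9%). Bad (0.78 ± 0.24) and Diablo (0.51 ± 0.15) were higher and Bok (-0.94 ± 0.18) and Bid (-0.62 ± 0.20) lower. The calls were lost for Diablo with 75th percentile scaling (0.255) and for Bad without replicate 1 of the 18 h arrays (0.482).

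Germline genes rose in 11 of 21 tested cases and fell in 1, with a median of 0.65, and with 75th percentile scaling 8 rose and 2 fell. Besides Brdt, Taf7l, a germ cell subunit of the general transcription factor TFIID, read 10.29, 10.11 and 9.91 at 18 h, against 8.24, 8.90 and 8.19 at 0 h, a rise of 1.66 ± 0.28 (adjusted p = 0.000609). Kit, a receptor of germ and blood cells, changed by -0.88 ± 0.22. All 3 treated arrays of Brdt and Taf7l lay above all untreated arrays, as for 24.9% of all genes. Genes listed for the rare 2-cell-like state, with the corepressor Trim28 among them, rose in 5 of 8 cases and fell in 2. With 75th percentile scaling 2 rose. Tcstv3, a 2-cell-stage gene of a multicopy family, rose by 1.05 ± 0.30 and Tmem92 by 1.13 ± 0.39, while Trim28, a corepressor of retroelements, changed by -0.97 ± 0.21 and Eif1a by -0.72 ± 0.19. The Tmem92 call was lost under several settings, with a change of 0.627 without replicate 1 of the 18 h arrays.

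The shares of lineage genes that rose are to be read against the 20.9% of all genes. They were 46.7% of neural, 35.7% of Hox and Cdx, 31.2% of trophectoderm, 30.8% of endoderm and 18.2% of streak and mesoderm genes. Of 15 tested neural genes 7 rose and 2 fell, with a median of 0.66, and 13 more on the array did not reach the detection filter. Nefm, a neurofilament, read 9.22, 8.11 and 8.18 at 18 h, against 6.01, 4.98 and 5.48 at 0 h, a rise of 3.01 ± 0.51 (adjusted p = 0.000637), with 1.71 to 2.36 on further probes. Chga, a protein of secretory granules, rose by 2.25 ± 0.42, with 0.48 on a second probe, whereas Neurod1, a neurogenic factor, changed by -1.23 ± 0.21 and Stmn2, a neuronal stathmin, by -1.06 ± 0.19. The groups of Nefm stood apart by more than the spread of either, but replicate 2 of the untreated arrays lay below its lowest detected signal of 5.08.

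Of 16 trophectoderm and placenta genes 5 rose and none fell, or 5 and 1 with 75th percentile scaling. Gata2, a trophoblast and blood factor, read 9.65, 8.66 and 8.10 at 18 h, against 6.80, 6.30 and 5.69 at 0 h, a rise of 2.54 ± 0.40 (adjusted p = 0.000391). Cdx2, the factor that specifies trophectoderm, read 6.95, 7.60 and 7.35 at 18 h, against 5.56, 5.40 and 5.10 at 0 h, a rise of 1.94 ± 0.31 (adjusted p = 0.000371). Neither gene's groups overlapped, as for 44.4% of all genes. Krt19, a keratin of simple epithelia, rose by 1.81 ± 0.56 with overlapping groups, and the other 2, named after their values were seen, were Ctsl (0.93) and Tfap2a (0.90).

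Endoderm genes rose in 4 of 13 cases and none fell. Pdgfra, a receptor of primitive endoderm, was at least 2.445-fold higher (adjusted p = 3e-06), and Amn, of visceral endoderm, rose by 0.94 ± 0.25 with overlapping groups. The other 2, named after their values were seen, were Cxcr4, at least 1.41-fold higher (adjusted p = 0.0366), and Sox17 (0.90), while Gata6 (-0.24) and Sox7 (-0.12) did not pass the test. Of 11 streak and mesoderm genes Snai1, a repressor of epithelial genes, rose by 1.34 ± 0.32 and Wnt3a by 0.90 ± 0.25, and none fell. The median of that list, 0.04, was -0.13 with 75th percentile scaling, where 2 fell. Of 14 Hox and Cdx genes, which pattern the body axis, 5 rose and none fell, or 3 and none with that scaling, and 20 more on the array did not reach the filter. Cdx1 rose by 1.70 ± 0.23 and Hoxd8 by 1.60 ± 0.21.

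Of 14 tested immediate early genes, which respond to growth factors within minutes, 8 rose and none fell, with a median of 1.28. Egr1, a zinc finger factor, read 13.69, 12.92 and 13.28 at 18 h, against 11.19, 10.12 and 10.68 at 0 h, a rise of 2.64 ± 0.27 (adjusted p = 2.01e-05). Its paralog Egr2 read 8.43, 7.22 and 7.15 at 18 h, against 4.72, 4.54 and 4.86 at 0 h, at least 5.795-fold higher (adjusted p = 2.25e-05). All treated arrays of both genes exceeded all untreated arrays, as for 24.9% of all genes.

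Of 13 feedback genes of ERK signalling 6 rose and 4 fell, or 5 and 6 with 75th percentile scaling. Dusp2, a nuclear MAP kinase phosphatase, read 9.48, 6.71 and 7.76 at 18 h, against 4.91, 4.79 and 4.56 at 0 h, where no array detected this probe, and was at least 7.57-fold higher (adjusted p = 0.000245), with a change of 1.66 on a second probe. Dusp1, of the same class, rose by 1.58 ± 0.26. Etv5 and Etv4, ETS factors induced by FGF signalling, changed by -1.38 ± 0.19 and -1.14 ± 0.20.

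In TGF-beta, Nodal and BMP signalling 7 of 16 genes fell and 4 rose, and the 4 were all of the Id family, inhibitors of helix-loop-helix factors that BMP induces. Id1 read 11.92, 11.82 and 12.12 at 18 h, against 10.15, 10.54 and 8.90 at 0 h, a rise of 2.09 ± 0.40 (adjusted p = 0.0014), and Id4 rose by 1.49 ± 0.28. The untreated arrays held most of the spread of Id1. Id3 (1.36) and Id2 (1.12) are named here after their values were seen. Nodal itself, which also stands in the formative list, was among those that fell (-1.56).

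Cytosolic chaperones rose in 6 of 13 cases and none fell, whereas with 75th percentile scaling 6 rose and 2 fell. Hspa1b and Hspa1a, the inducible HSP70 pair, had the largest changes. Hspa1b read 9.59, 8.54 and 8.28 at 18 h, against 4.95, 6.02 and 4.90 at 0 h, a fitted rise of 3.51 ± 0.37 (adjusted p = 2.39e-05). Its signal on replicates 1 and 3 of the untreated arrays lay below their lowest detected signal of 5.05, so the size rests on values at background. Hspa1a rose by 3.46 ± 0.47, with 0.82 on a second probe. The coding sequences of this pair are nearly identical, so their signals may be shared.

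Of 22 genes of the response to ER stress and amino acid shortage 9 fell and 2 rose, with a median of -0.45. Chac1, which degrades glutathione and is a target of ATF4, read 9.45, 9.04 and 8.45 at 18 h, against 11.13, 10.70 and 11.81 at 0 h, a change of -2.24 ± 0.28 (adjusted p = 7.79e-05). Hspa5, the ER chaperone BiP, rose by 0.73 ± 0.21 and Sdf2l1, an ER cochaperone, by 0.62 ± 0.21. All 3 treated arrays of Chac1 lay below the untreated arrays, as for 19.5% of all genes.

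Of 18 ribosome biogenesis genes 8 fell and none rose, with a median of -0.44, and Nop56, a snoRNP core protein, changed by -1.59 ± 0.24 and Gnl3, nucleostemin, by -1.05 ± 0.24. Of 21 cytosolic ribosomal proteins 2 fell (9.52%, against 15.7% of all genes), Rps6 (-0.55 ± 0.15) and Rps20 (-0.55 ± 0.17). The median was -0.02, but with 75th percentile scaling 16 fell and the median was -0.68. Of 18 glycolysis genes 6 fell (33.3%, against 15.7% of all genes) and 1 rose, or 10 and 1 with that scaling. Eno3, the muscle enolase, changed by -1.27 ± 0.19 and Pfkp, a phosphofructokinase, by -0.94 ± 0.17, while Eno2, the neuronal enolase, rose by 1.08 ± 0.33. Oxidative phosphorylation subunits rose in 3 of 26 cases (11.5%, against 20.9% of all genes) and none fell, or 1 and 4 with that scaling. Cox6a1 (0.83 ± 0.15) and Ndufv1 (0.70 ± 0.15) were among the 3.

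Sterol and fatty acid synthesis genes rose in 4 of 20 cases and none fell, with a median of 0.50; that share of 20.0% is near the 20.9% of all genes. Scd1, a fatty acid desaturase, rose by 1.47 ± 0.46 and Dhcr7, of cholesterol synthesis, by 1.07 ± 0.33. Of 21 lysosome and autophagy genes 6 rose (28.6%, against 20.9% of all genes) and 2 fell, or 3 and 2 with 75th percentile scaling. Npc1, a lysosomal cholesterol transporter, rose by 1.19 ± 0.17, but its further probes read -0.85 to -0.30, and Atp6v0d1, of the proton pump, rose by 0.96 ± 0.18. Ctsa, a carboxypeptidase, changed by -1.46 ± 0.24, with 0.01 on a second probe, and Hexa by -0.90 ± 0.28. Of 6 metallothionein and zinc genes 4 rose and 1 fell, with Mt2, a metal-binding protein, at 1.98 ± 0.19, Slc30a3, a zinc exporter, at 1.58 ± 0.48 and Slc39a10, a zinc importer, at -1.06 ± 0.27.

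Genes of the cytoskeleton, cell surface and matrix contained single large changes. Of 19 axoneme and cilia genes 7 rose and none fell, or 5 and 1 with 75th percentile scaling. Dynlrb2, a dynein light chain, was at least 3.98-fold higher (adjusted p = 1.36e-05). Rsph1, a radial spoke protein, read 10.29, 9.41 and 10.00 at 18 h, against 7.32, 7.28 and 7.64 at 0 h, a rise of 2.49 ± 0.24 (adjusted p = 1.08e-05). Its groups did not overlap, as for 44.4% of all genes. Tubulins rose in 4 of 11 cases (36.4%, against 20.9% of all genes) and fell in 1, but none rose and 2 fell with 75th percentile scaling. Tubb1, with signal on 2 of 3 treated arrays and no untreated array, was at least 1.25-fold higher. Tuba1a rose by 0.75 ± 0.18, while Tubb5 changed by -0.41 ± 0.13.

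Of 23 matrix and integrin genes 5 rose (21.7%, near the 20.9% of all genes) and 2 fell. Col6a1, a collagen VI chain, rose by 2.43 ± 0.25, with 1.33 on a second probe, and Ccn2, a matricellular protein, by 1.87 ± 0.26, while Fn1, fibronectin, changed by -1.37 ± 0.20 and Lama5, a laminin, by -1.002 ± 0.224. Of 17 genes of junctions and their regulators 3 rose (17.6%, against 20.9% of all genes) and 1 fell. Cldn10 rose as above, Snai2, a repressor of E-cadherin, by 1.90 ± 0.19 and Pkp2, named after its value was seen, by 0.86. Esrp1, an epithelial splicing regulator, changed by -0.61 ± 0.18.

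Of 19 imprinted genes, expressed from a single parental allele, 4 rose (21.1%, near the 20.9% of all genes) and 5 fell (26.3%, against 15.7%). Besides Cdkn1c, Slc22a18 rose by 1.27 ± 0.36. Grb10, an adaptor that restrains growth factor signalling, read 9.09, 9.78 and 9.65 at 18 h, against 11.83, 11.99 and 11.83 at 0 h, a change of -2.38 ± 0.19 (adjusted p = 2.97e-06), with -0.99 on a second probe, and Phlda2 changed by -1.34 ± 0.19. The arrays do not separate the alleles.

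Interferon and antigen presentation genes split: of 21, 7 rose (33.3%, against 20.9% of all genes) and 5 fell (23.8%, against 15.7%). The median was 0.05, and -0.001 with 75th percentile scaling. Cd74, the invariant chain of MHC class II, was at least 4.18-fold higher (adjusted p = 4.1e-05), with 7.79, 6.81 and 6.77 at 18 h, against 4.58, 5.06 and 4.57 at 0 h. H2-K1, an MHC class I heavy chain, rose by 1.79 ± 0.24, although a second probe read -0.14. Ifitm1, an interferon-induced membrane protein, read 10.12, 10.24 and 10.72 at 18 h, against 12.08, 11.82 and 12.21 at 0 h, a change of -1.68 ± 0.23, and Oasl2 changed by -1.58 ± 0.34. Groups did not overlap for Cd74 or Ifitm1, as for 44.4% of all genes.

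**Figure D3:**
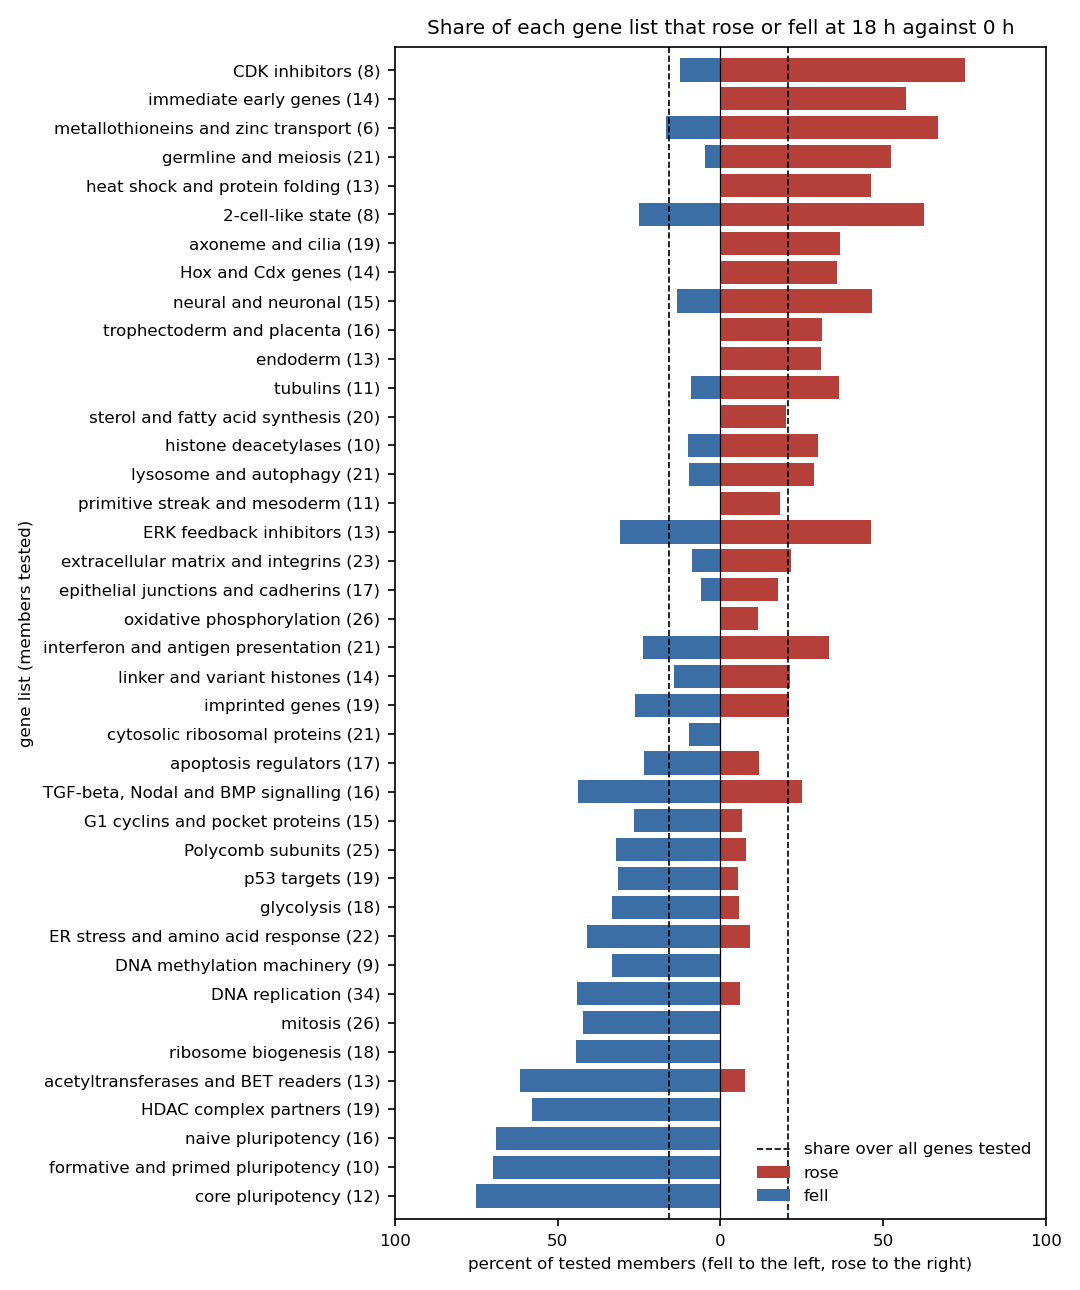
Percent of the tested members of each gene list that rose (red, right) or fell (blue, left) at 18 h against untreated cells, with the number tested in parentheses and dashed lines at the shares over all 11445 genes (20.9% rose, 15.7% fell). CDK inhibitors, with 6 of 8 that rose, stand at the top and core pluripotency genes, with 9 of 12 that fell, at the bottom.

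The change at 18 h was set against that at 6 h, the time most like it, through the difference between the 18 h and 6 h arrays, which equals the difference of their changes from the shared untreated arrays. It differed for 1275 genes (11.1%), 705 higher (6.16%) and 570 lower (4.98%) at 18 h. Of the 2390 genes that rose by 18 h, 494 were also higher than at 6 h, 61 were lower than at 6 h and 1835 were not called against 6 h. Of the 1794 that fell, 238 were also lower than at 6 h, 19 were higher and 1537 were not called. This count depends on the 6 h arrays: it was 600, 655 and 543 when replicate 1, 2 or 3 of the 6 h group was left out, 632 without replicate 2 of the 18 h group and 868 without replicate 3 of that group.

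Of the genes with the largest further rise, Ankrd37, Psors1c2 and Krt19 had changed by -0.25, 0.12 and -0.47 at 6 h. Ankrd37, an ankyrin repeat gene that hypoxia induces, had 11.11, 11.19 and 11.37 at 18 h, a mean of 8.67 at 6 h, and 8.37, 9.68 and 8.70 at 0 h. It was 2.56 higher at 18 h than at 6 h (adjusted p = 0.000292). Col6a1 was 2.31, Psors1c2 2.35 and Krt19 2.28 higher than at 6 h, and Oas1e and Oas1d 3.69 and 2.38. Cdx2, Cdkn1c and Taf7l changed by -0.20, 0.06 and -0.11 at 6 h, and all were higher at 18 h than at 6 h, by 2.14, 1.77 and 1.77. Of the 21 germline genes 10 were higher than at 6 h.

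Bcat1, the cytosolic branched-chain aminotransferase, had 8.71, 9.18 and 8.85 at 18 h, a mean of 10.99 at 6 h, and 11.72, 11.39 and 11.55 at 0 h, and was 2.08 lower at 18 h than at 6 h on the log2 scale (a difference of -2.08, adjusted p = 0.00019). Ooep, an oocyte and early embryo protein, had 9.35, 10.37 and 11.01 at 18 h, a mean of 12.18 at 6 h, and 12.71, 12.85 and 13.03 at 0 h. The difference from 6 h was -1.93 for Ooep, -2.00 for Slc7a3, -1.81 for Grb10, -1.91 for Mup6, a major urinary protein gene whose near-identical relatives its probe may also detect, and -1.81 for Dtna, a dystrobrevin.

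Pou5f1 changed by -0.50 at 6 h and was lower still at 18 h, by a difference of -1.78 (adjusted p = 0.00019). Nanog changed by -2.19 at 6 h, and its difference between 18 h and 6 h was -0.08 (adjusted p = 0.908). Among the 12 largest falls at 18 h, Fgf17 differed by 0.02 and Gli2 by -0.20 from 6 h, without passing the test.

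**Figure D4:**
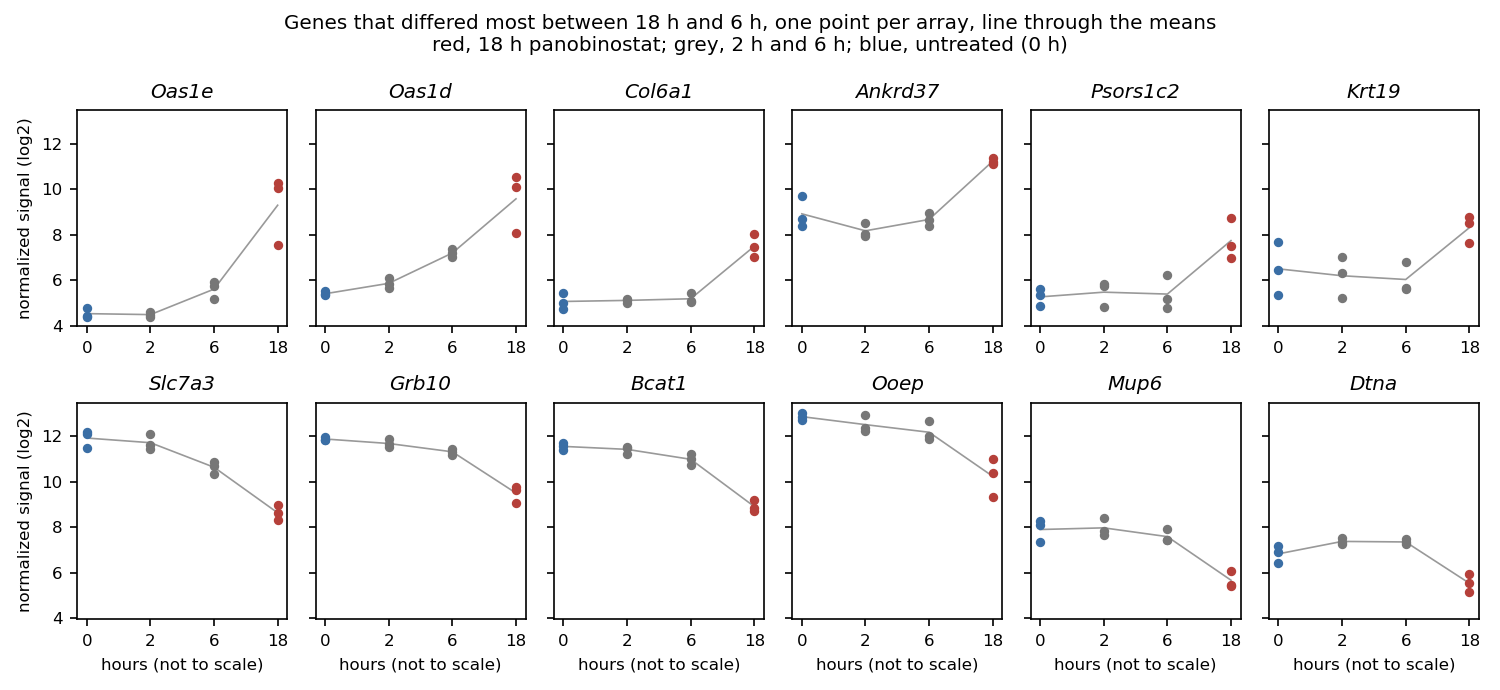
Normalized signal (log2) at 0, 2, 6 and 18 h of the 6 genes with the largest further rise (top) and the 6 with the largest further fall (bottom) between 6 h and 18 h, 1 point per array with a line through the group means. The 18 h points (red) stand apart from the 6 h points in all 12 panels, with differences of 2.28 to 3.69 in the top row and -2.08 to -1.81 in the bottom row.

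Promoter composition, which the comparison did not use, was described for genes with a RefSeq promoter, without a test. Where a gene had several promoters listed, only the first listed was used. The 1902 promoters of genes that rose had a median of 19 CpG in 300 bases, the 1460 of genes that fell 21 and the 5888 of genes not called 20. Genes of large change had fewer. The median was 17 CpG for 135 genes that rose at least 4-fold, 10 for 62 that fell at least 4-fold, 13 for 229 detected at 18 h and not at 0 h and 11 for 57 detected at 0 h only. Over all 27025 promoters in the table, tested or not, it was 7.

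A TATAAA match stood in 15.6% of promoters that rose at least 4-fold and 22.6% of those that fell at least 4-fold, against 7.82% of all tested and 14.2% of the whole table. A GC box (GGGCGG) stood in 63.7% and 51.6% of these groups, against 63.8% of all tested and 35.9% of the whole table. The AP-1 motif TGANTCA was found in 10.4% and 6.45%, against 4.97% and 7.93%, and CCAAT in 45.9% and 29.0%, against 39.0% and 37.9%. Both strands were searched, and motifs may overlap. By chromosome, the share of tested genes that rose lay between 17.7% (chromosome 13) and 24.3% (chromosome 12) and the share that fell between 12.1% (chromosome 12) and 18.8% (chromosome 7).

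**Figure D5:**
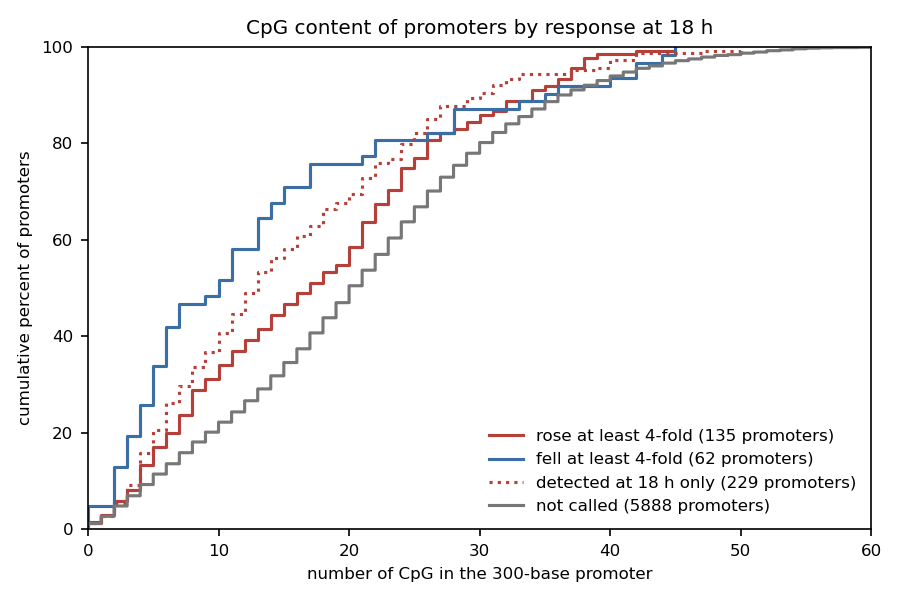
Cumulative percent of promoters (vertical axis) by their number of CpG in 300 bases (horizontal axis), for genes that rose or fell at least 4-fold, genes detected at 18 h only and genes not called. The curve of the 62 promoters that fell at least 4-fold lies furthest left at the middle, at a median of 10 CpG, against 20 for genes not called.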

How the data were processed

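RNA of E14 cells at 0, 2, 6 and 18 h was measured on 12 Illumina bead arrays, 3 per time, grouped by the labels. The authors deposited an intensity and a detection p-value per probe, per the file headers. The submitters' processing notes name GenomeStudio. The version and genome build are not given in the sources used here. Intensities were corrected with normexp on detection p-values (offset 16), quantile normalized and taken to log2 in limma 3.58.1 (R 4.3.3). Of 45281 probes, 34885 had 1 gene symbol, 18 several and 10378 none in the platform annotation given, and 34807 symbols were updated by gene ID. A probe was kept if 3 or more of the 12 arrays detected it (p-value under 0.05), which left 20029, 17029 of them with 1 gene. The brightest probe stood for each of 11445 genes. Linear models with 1 mean per time over all 12 arrays, moderated by limma with Benjamini-Hochberg adjustment (2-sided, threshold 0.05), gave 18 h against 0 h and 18 h against 6 h. The script was tested on simulated data.

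Members and gene lists were chosen with earlier results of these data known. Named by rule were the 12 largest fitted rises and falls (clone names left out) without overlap and detected on 3 arrays, up to 2 per list and direction, the Hdac genes, Cdkn1a, Pou5f1, Sox2, Nanog and markers of other cells, the largest detected in only 1 group, and the 6 most changed each way against 6 h. Promoters came from RefSeq (GRCm38.p6), found for 9250 tested genes (80.8%). Alternatives varied background correction, normalization, filter, probe choice, design and arrays.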

Additional observations from a re-analysis of the deposited data

Results flagged for a closer look

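The change from untreated cells differed between 18 h and 6 h, by the contrast of the 18 h and 6 h arrays in limma, for 1275 genes, and the named genes among them are given here with their log2 difference, 18 h minus 6 h. Both changes use the same 3 untreated arrays. Higher at 18 h than at 6 h were Oas1e (3.69), Oas1d (2.38), Cldn10 (0.85), Cldn11 (1.32), Dmkn (2.08), Krtdap (2.03), Gpha2 (2.06), Spink2 (1.76), Pyy (1.74), Krt19 (2.28) and Psors1c2 (2.35). Higher as well were Brdt (1.69), Taf7l (1.77), Cdx1 (1.27), Cdx2 (2.14) and Hoxd8 (1.17). The same held for Col6a1 (2.31), Fbln2 (1.56), Esam (1.03), Pdgfra (1.01), Cd74 (1.54), H2-Aa (2.16), Dynlrb2 (1.31) and Rsph1 (0.88), and for Cdkn1c (1.77), Dusp1 (1.05), Ankrd37 (2.56), Hba-a1 (1.82), AU015228 (1.64), Cox6a1 (0.60) and Atp6v0d1 (0.69).

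Lower at 18 h than at 6 h were Pou5f1 (-1.78), Utf1 (-0.92), Tbx3 (-0.93), Jam2 (-1.45), Phc1 (-0.49), Trim28 (-0.73), Dnmt3b (-0.95), Kat6b (-0.88) and Ooep (-1.93). Lower as well were Nupr1 (-0.90), Sesn2 (-0.77), Etv5 (-0.82), Etv4 (-0.77), Hspa5 (-1.36), Ifitm1 (-1.49), Tek (-0.82) and Stmn2 (-0.84). The remaining lower values were Slc7a3 (-2.00), Slc28a1 (-0.69), Bcat1 (-2.08), Grb10 (-1.81), Phlda2 (-0.87), Fn1 (-0.78), Eno3 (-0.75), Rps20 (-1.23), Mup6 (-1.91), Dtna (-1.81) and Gm525 (-1.17). Gm525 had no detected signal at 18 h, so its value is a fitted one. Of the genes named here, Dnmt3b, Cdx2, Taf7l, Rps20, Ankrd37, Krt19 and Dtna had changes of opposite sign at 18 h and 6 h. Hspa5 was higher than in untreated cells at 18 h and at 6 h.

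Probes that the annotation used here ties to no gene stood outside the comparison of genes. In a fit over all 20029 probes kept, 369 of 3000 such probes were higher and 436 lower at 18 h than in untreated cells, and 26.8% were called, against 33.3% of the probes with 1 gene.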

How the results depend on the processing

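Of 3873 values of 169 named genes under 23 alternative settings, 3724 kept direction and side of the threshold, 131 kept direction and lost the call, 3 gained it and 15 changed sign, and 121 of 156 called named genes kept the call under every alternative. Without each array in turn, the genes called at 18 h against untreated cells numbered 3124 to 4377 (rose 1786 to 2497, fell 1338 to 1880), those also changed at least 2-fold 1323 to 1970 (up 819 to 1235, down 504 to 735), those called against 6 h 543 to 1551 (higher 334 to 863, lower 209 to 688), those detected at 18 h only 283 to 467 and those detected at 0 h only 79 to 131. With a fold threshold added, 1655 of the 4184 calls were left, since fewer genes can pass. At least 2-fold changes numbered 613 (366 up, 247 down) both with no background correction and in the authors' normalized table, and 995 (611 up, 384 down) with an offset of 50, settings that compress fold changes at low signal. With 75th percentile scaling the median of all genes moved to -0.113, and 43.1% of calls were higher, against 57.1% with quantiles, 59.9% with cyclic loess and 56.3% in the authors' table; the cause was not tested. With array weights 870 genes were lower than at 6 h, and the cause was not tested.

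A replicate block gave 4949 calls against untreated cells (2775 rose, 2174 fell) and 2074 against 6 h (1147 higher, 927 lower), more than without it. Arrays of the same number at 18 h and 0 h had deviations that correlated at 0.066, 0.257 and 0.415; replicate 1 of the 18 h arrays correlated better with replicate 2 of the untreated arrays (0.131) than with its own number, and the labels do not say what a number shares.

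The values that changed sign were none of them calls. With 75th percentile scaling they were Hdac2 (-0.311), Hdac7 (-0.014), Csf1r (-0.205) and Cdh5 (-0.151), with the mean over probes Hdac2 (-0.222), and with array weights Hdac8 (0.000) and Twist2 (0.097). Without replicate 2 of the untreated arrays they were Hdac9 (0.047) and Twist2 (0.320), and without replicate 3 Hdac7 (-0.056), Twist1 (-0.221) and Csf1r (-0.141). Without replicate 2 of the 18 h arrays they were Hdac9 (0.090) and Twist1 (-0.006), and without replicate 3 Twist2 (0.307). Over the settings that leave out 1 array, these genes ranged up to 0.556 for Hdac7, 0.494 for Twist1 and 0.246 for Csf1r and down to -0.301 for Hdac9 and -0.268 for Twist2. Of list medians, 138 of 1012 moved by more than 1 SD and 49 took the other sign; the causes were not tested.

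With 75th percentile scaling the calls of Cbx8, Tcstv3, Tubb1, Diablo (0.255), Gins4 (0.199), Ndufv1 (0.254), Tuba1a (0.297) and Hdac3 (0.312) were lost. With the mean over probes those of Hdac5 (0.419), Bid (-0.337), Tmem92 and Npc1 (0.011) were lost. Other settings lost further calls. Calls were also lost without single arrays. Without replicate 1 of the 18 h arrays these were Hdac11, Cbx8, Dnmt3b, H2az1, Bad, Bid, Kif11, E2f2, Tmem92, Tcstv3, Hspa5, Sdf2l1, Rps6, Eno2, Dhcr7, Hexa, Slc30a3, Tubb5, Esrp1, Slc22a18, Cldn5, Sox2, Vwf and Krt19. Without replicate 2 or 3 of that group, Diablo, Rps20 and Scd1 were lost besides several of these. Without an untreated array, Hdac3 and Wnt3a were lost besides genes already named. In the full set their adjusted p lay between 0.0121 (Hdac3) and 0.0404 (E2f2). Signal over background limits the dim genes: bounds replace folds where a group had no detected signal.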

Other observations

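Some gene families, a few of whose members stand in the lists above, are described by their counts at 18 h, to be read against the 20.9% of all genes that rose and the 15.7% that fell. They were picked by symbol stem after their values were seen, so counts are given without a test, and members alike in sequence may share probe signal. Of 17 tested H2- genes, which encode the MHC molecules that present peptides, 14 rose and none fell, with a median change of 1.34 (13 rose with 75th percentile scaling). Both classes took part, 9 of 11 class I and 5 of 6 class II genes. H2-Q7 rose by 1.92 (adjusted p = 0.000159), whereas H2-M3 changed by -0.13 without passing the test. The median of the family was 0.36 at 6 h, and 7 members were higher at 18 h than at 6 h. Pramel genes, a multicopy family of germ cells and early embryos, rose in 8 of 11 cases and none fell, with a median of 1.21. Tex19.1 and Tex19.2, which restrain retrotransposons in germ cells, rose by 1.97 (adjusted p = 0.000472) and 2.60 (adjusted p = 0.000153).

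Cfap genes, which encode parts of motile cilia and flagella, rose in 9 of 16 cases and none fell (4 rose with 75th percentile scaling), among them Cfap206, at least 4.35-fold higher (adjusted p = 4.65e-06), and Cfap45 at 2.29 (adjusted p = 6.6e-05). Of 6 Gstm genes, glutathione transferases that conjugate toxic compounds, 5 rose and none fell, with a median of 0.81 at 18 h and -0.03 at 6 h, and 3 rose with 75th percentile scaling. The 5 were all higher at 18 h than at 6 h. Pex genes, which build peroxisomes, rose in 8 of 14 cases and fell in 1 (4 and 1 with that scaling). In the other direction, 5 of 8 Kmt genes, histone lysine methyltransferases, fell and none rose, with a median of -0.92, and of 7 Rrp genes of ribosomal RNA processing 4 fell and none rose. Other families showed less: of 27 Kcn genes of potassium channels 6 rose, 2 fell and 19 did not pass the test, with a median of 0.09 (-0.11 with 75th percentile scaling), and of 12 Cldn genes 4 rose and none fell, with 8 that missed the threshold.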
